A study of Mus musculus with 6 samples.

Results

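*Apoo* and 5 other genes for proteins that shape the cristae, the folds of the inner mitochondrial membrane, were followed in astrocytes isolated from mouse brain after quinpirole. The 6 genes were *Apoo*, *Apool*, *Immt*, *Chchd3*, *Chchd6* and *Opa1*, of 17193 genes with a value, and each of them had a row in all libraries. *Apoo* was selected on its FPKM values in these libraries, which were higher after quinpirole, so its own difference is given as a description without a test. The other 5 genes were taken by name as genes known to work beside *Apoo*.

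All mice were 3-month-old wild-type C57BL/6 animals. The control group, labelled Mock, is named saline in the column headers of the study's sequencing table and is called saline here, and the other group received quinpirole, an agonist of the dopamine receptor DRD2. Each group had 3 libraries of polyadenylated RNA from astrocytes captured with anti-ACSA-2 microbeads, and the comparison asks which transcripts differed in these cells after stimulation of the receptor. The dose given to the sequenced animals was not given in the sources used here.

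Cristae hold the respiratory chain and the ATP synthase, and narrow crista junctions connect them with the membrane that faces the outer membrane. The junctions are held by MICOS, a complex built on mitofilin, the product of *Immt*. *Chchd3* and *Chchd6* encode subunits that bind mitofilin, and *Apoo* and *Apool* encode a related pair of apolipoprotein O family subunits, also called MIC26 and MIC27. OPA1 is a dynamin-like GTPase that fuses the inner membrane and keeps crista junctions narrow.

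Values are FPKM, a fragment number divided by the length of the transcript and the depth of the library. Depth, read from the spacing between low values, came to 25300000 to 27400000 fragments per saline library and 22100000 to 26800000 per quinpirole library. FPKM summed over all genes was 401768.6 to 413730.2 in the saline and 425244.5 to 437164.4 in the quinpirole libraries, without overlap. The part of this difference in the estimates below was not tested. Of the 12255 genes that averaged an FPKM of 1 or more, limma called 1339 different at an adjusted p under 0.05, which is 10.9% of them, with 5.74% higher and 5.18% lower after quinpirole. The libraries of the groups did not overlap for 36.9% of the tested genes, 20.0% with quinpirole above saline and 16.9% below. The 12 astrocyte markers had values above 0 in every library, though *Gjb6* was only at 0.0562 to 0.281. Their summed FPKM was 1510 to 1673 in the saline and 1499 to 1528 in the quinpirole libraries. The largest part of that sum was *Gfap*, with a mean of 528 in saline and 485 after quinpirole. *Atp1b2*, which encodes the ACSA-2 antigen, fell by 0.19 on the log2 scale (adjusted p = 0.0382). *Drd2*, the gene of the receptor, had an FPKM of 0 to 0.104 in the saline and 0 to 0.0972 in the quinpirole libraries. As the cells were a bulk sample, fewer cells of a type and less RNA per cell cannot be told apart.

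*Apoo* lies on the X chromosome at 94367117 to 94417093 of GRCm38, on the plus strand, with 1255 nucleotides of exons. Its FPKM was 10.0, 10.4 and 11.2 in the saline libraries and 19.0, 19.6 and 19.7 in the quinpirole libraries. The groups did not overlap, and the gap between the groups was wider than the whole range within either group. The mean went from 10.5 ± 0.603 to 19.4 ± 0.367 (SD, n = 3), a ratio of 1.845. On the scale of log2(FPKM + 1) the difference was 0.83 with a standard error of 0.05 and a 95% interval of 0.70 to 0.95. This placed *Apoo* at rank 20 of the 12255 tested genes, counted from the largest rise. Because *Apoo* was selected for this difference, the interval and the rank are descriptions and not tests. At the estimated depths these values stood for about 331.5 to 357.4 fragments per saline library and 545.5 to 639.1 per quinpirole library, so counting error alone was 4.0 to 5.5% per library.

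**Figure D1:**
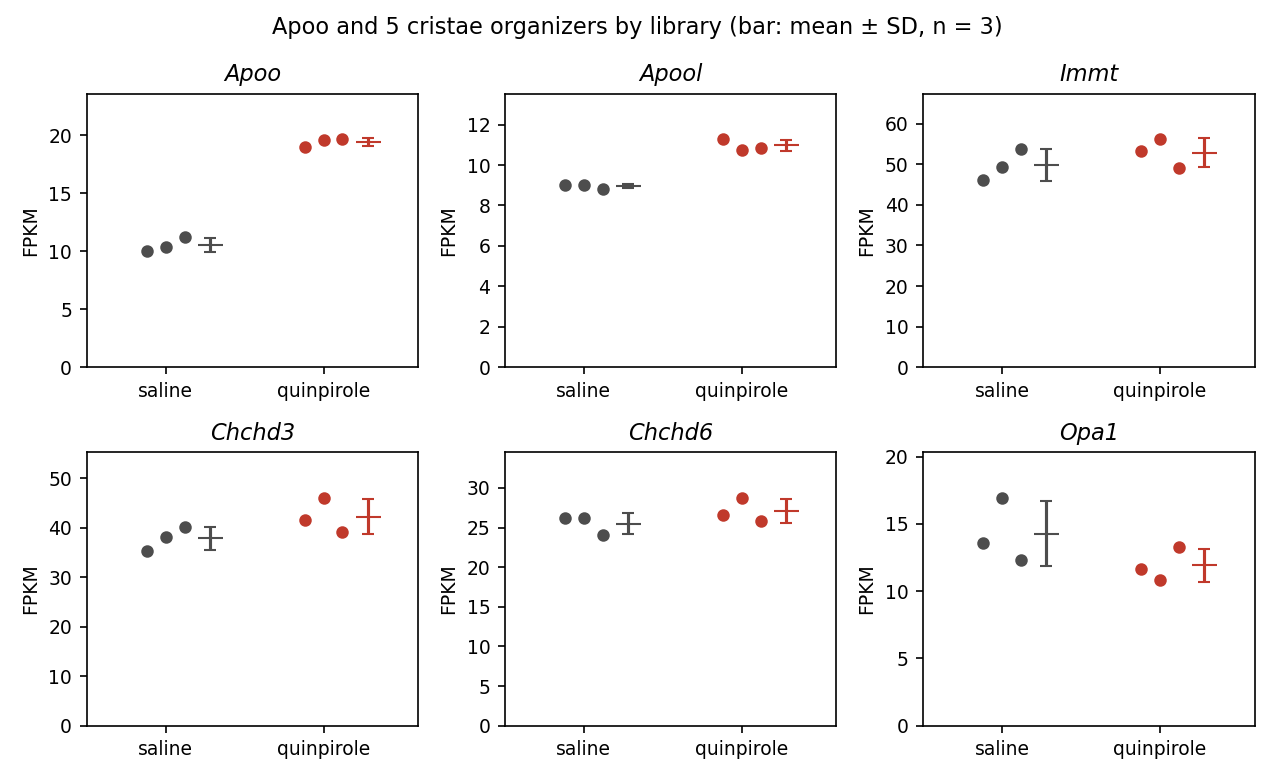
FPKM of the 6 genes in each library (points, left to right libraries 1 to 3 of the saline and quinpirole groups), with the mean and SD of each group of 3 beside them and a separate axis from 0 in each panel. *Apoo* is at 10.0 to 11.2 in saline and at 19.0 to 19.7 after quinpirole, *Apool* separates by a smaller step, and the groups overlap for the other 4 genes.

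Part of the *Apoo* message also exists elsewhere in the genome. *Apoo-ps*, a processed pseudogene on the minus strand of chromosome 13 at 107414144 to 107414729, is 586 bases long, and all of it is identical to positions 348 to 933 of the longest *Apoo* transcript (1218 nucleotides), with 0 differences. This stretch covers 586 of the 636 coding bases and touches 8 of the 9 exons. The point where the identity starts is shown because reads that lie wholly to its right, within the copied stretch, cannot be assigned to either locus by their bases. Capitals mark the bases that are the same in both, and the *Apoo* line shows transcript positions 318 to 407, while the *Apoo-ps* line is chr13:107414670-107414729 on the minus strand.
Apoo: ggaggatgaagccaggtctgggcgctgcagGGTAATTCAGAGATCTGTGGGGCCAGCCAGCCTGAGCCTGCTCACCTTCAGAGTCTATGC
Apoo-ps: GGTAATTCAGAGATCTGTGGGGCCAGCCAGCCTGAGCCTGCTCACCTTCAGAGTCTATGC
Of the 1169 words of 50 bases in the *Apoo* transcript, 537 (45.9%) occurred in *Apoo-ps*. A further processed pseudogene, *Gm17932*, shared 3 words and was not used here. The *Apoo* sequence outside the copied stretch, 632 nucleotides of the transcript, includes the start of the coding region and both untranslated ends.

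The values of the copy differed in the other direction. The FPKM of *Apoo-ps* was 1.27, 1.52 and 1.21 in the saline libraries and 0.345, 0.404 and 0.213 in the quinpirole libraries. Each quinpirole library was below each saline library, with a mean of 1.34 ± 0.165 against 0.321 ± 0.0978 (SD, n = 3), which is 4.162 times higher in saline. The mean over the 6 libraries was under 1, so the gene was not tested. In estimated fragments the copy held 17.9 to 24.4 per saline library and 2.8 to 6.0 per quinpirole library. The mean for *Apoo-ps* was 20.7 fragments in saline and 4.7 after quinpirole, while that of *Apoo* was 254.3 fragments higher after quinpirole. Both loci together held 351.2, 381.8 and 373.2 estimated fragments in the saline libraries and 644.5, 628.5 and 548.3 in the quinpirole libraries, a ratio of 1.755 at equal depth. Moving every fragment of the copy to *Apoo* thus left the groups apart, with a log2 difference of 0.76. How the reads shared by both loci were divided when FPKM was computed is not given in the sources used here, and its part in the values of *Apoo-ps* was not tested.

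**Figure D2:**
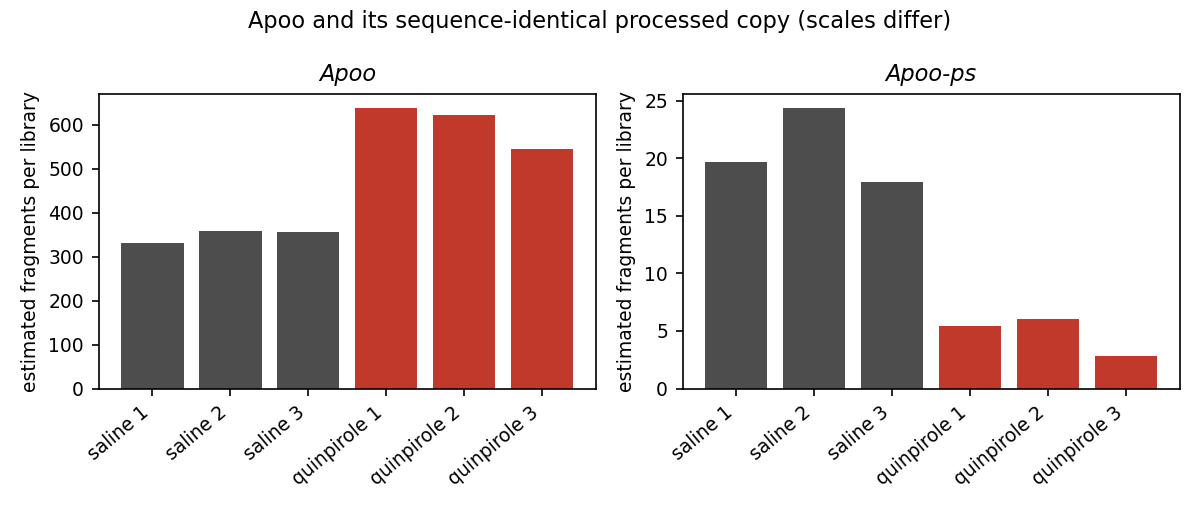
Estimated fragments per library (FPKM times exonic length times estimated depth) for *Apoo* and *Apoo-ps*, 3 saline libraries in grey and 3 quinpirole libraries in red, with different vertical scales that both start at 0. *Apoo* holds 331.5 to 357.4 fragments in saline and 545.5 to 639.1 after quinpirole, and *Apoo-ps* 17.9 to 24.4 and 2.8 to 6.0.

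*Apool*, the closest relative of *Apoo* among the 6 genes, was the one gene of the other 5 that rose. It lies on the same chromosome at 112311334 to 112372755, on the plus strand. The FPKM of *Apool* was 8.998, 9.03 and 8.83 in the saline libraries and 11.3, 10.8 and 10.9 in the quinpirole libraries. The groups did not overlap, and both were narrow, with an SD of at most 2.54% of the mean. The mean rose from 8.95 ± 0.108 to 11.0 ± 0.279 (SD, n = 3), a ratio of 1.225 and a log2 difference of 0.27 ± 0.05 (SE, adjusted p = 0.0251). Its 95% interval was 0.16 to 0.37. Thus 1 of the 5 genes was called and had groups that did not overlap, against 10.9% and 36.9% of all tested genes. The estimate for *Apool* stayed between 0.25 and 0.28 when any 1 library was left out, but it passed the threshold only without saline library 3 (adjusted p = 0.0413). The adjusted p was 0.0764 without saline library 1, 0.0957 without saline library 2, and 0.0667, 0.0766 and 0.0555 without quinpirole library 1, 2 and 3, when the number of genes called in the whole table dropped as well, to between 3 and 214. After correction for both exonic length and GC content the *Apool* estimate was 0.17 (adjusted p = 0.0888).

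The promoters of *Apoo* and *Apool* are shown because these were the 2 genes of the 6 with groups that did not overlap. RefSeq gives each gene in GRCm38.p6 with 250 bases before and 50 bases after its start, and all 6 genes were matched. The motifs searched on both strands included the NRF1 core, given by name alone, and the core of the antioxidant response element, TGACNNNGC, which NRF2 binds. The last was the short form of the cyclic AMP response element, TGACG. A match to the antioxidant core is also a match to the cyclic AMP motif where its first N is G. Capitals mark the matches. The *Apoo* window, for the first of 2 listed starts, is chrX:94366860-94367159 on the plus strand, and the *Apool* window is chrX:112311102-112311401 on the plus strand.
Apoo: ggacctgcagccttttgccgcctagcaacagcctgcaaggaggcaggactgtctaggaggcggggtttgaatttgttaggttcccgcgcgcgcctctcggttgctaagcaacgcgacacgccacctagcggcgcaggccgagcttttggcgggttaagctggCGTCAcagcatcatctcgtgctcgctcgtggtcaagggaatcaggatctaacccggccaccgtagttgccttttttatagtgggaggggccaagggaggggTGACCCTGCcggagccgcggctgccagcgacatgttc
Apool: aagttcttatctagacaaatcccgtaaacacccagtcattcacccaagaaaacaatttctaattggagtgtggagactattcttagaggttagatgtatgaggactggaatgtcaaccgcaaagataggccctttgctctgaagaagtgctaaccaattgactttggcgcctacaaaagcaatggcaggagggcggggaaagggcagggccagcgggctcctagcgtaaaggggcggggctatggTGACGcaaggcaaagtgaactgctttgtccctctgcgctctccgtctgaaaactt
The *Apoo* window held 1 antioxidant core, beginning 13 bases downstream of the start, and 1 cyclic AMP motif on the minus strand, 88 bases upstream. The window of the second *Apoo* start, not printed, held the same antioxidant core, 31 bases upstream of that start. It held another on the minus strand, 22 bases downstream. The *Apool* window held 1 cyclic AMP motif, 5 bases upstream, and no antioxidant core. Among 32851 promoters of the same length, 12.4% held the antioxidant core, 20.8% the cyclic AMP motif and 4.6% the NRF1 core. The window of *Chchd6* held 1 cyclic AMP motif, those of *Immt* and *Opa1* held an NRF1 core, 1 base downstream and 59 bases upstream of the start, and that of *Chchd3* held no match. A match describes letters in the window and was not tested for binding.

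*Immt* encodes mitofilin, the central scaffold of MICOS, and had the highest FPKM of the 6 genes. It lies on chromosome 6 at 71831331 to 71877388, on the plus strand. Its FPKM was 46.1, 49.3 and 53.9 in saline and 53.2, 56.2 and 49.1 after quinpirole. The highest saline library lay above the lower pair of quinpirole libraries, and the groups overlapped. The log2 difference was 0.09 ± 0.07 (SE), with a 95% interval from -0.08 to 0.25 (adjusted p = 0.439). The ratio of *Apoo* to *Immt* FPKM was 0.217, 0.211 and 0.208 in saline and 0.357, 0.349 and 0.401 after quinpirole, with no overlap.

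*Chchd3* and *Chchd6* encode MIC19 and MIC25, coiled-coil-helix proteins that join mitofilin to the rest of the complex. *Chchd3* (chromosome 6, 32790976 to 33060260, minus strand) had an FPKM of 35.4, 38.2 and 40.1 in saline and 41.5, 46.1 and 39.2 after quinpirole. Its groups overlapped in 1 library each, and the difference of 0.15 ± 0.07 on the log2 scale (95% interval -0.01 to 0.32) did not pass the test (adjusted p = 0.178). *Chchd6* (chromosome 6, 89383146 to 89595652, minus strand) had an FPKM of 26.2, 26.3 and 24.0 in saline and 26.6, 28.8 and 25.8 after quinpirole. The groups overlapped here too, with a log2 difference of 0.08 ± 0.06 and a 95% interval of -0.05 to 0.22 (adjusted p = 0.357).

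*Opa1*, on chromosome 16 at 29579334 to 29654884 of the plus strand, was the one gene of the 6 with a negative estimate. Its FPKM was 13.6, 16.9 and 12.3 in saline and 11.6, 10.8 and 13.3 after quinpirole. The spread was the widest of the 6 genes, with an SD of up to 16.8% of the mean, and the groups overlapped. The log2 difference was -0.24 ± 0.12 (SE), with a 95% interval from -0.51 to 0.04 (adjusted p = 0.216). Without saline library 2, the highest of the 6, the estimate was -0.11 (adjusted p = 0.495). Over the 5 genes besides *Apoo* the median log2 difference was 0.09, against 0.01 for all tested genes.

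The order of the levels per length changed at one place. In saline the FPKM ranges ran from *Immt* (46.1 to 53.9) through *Chchd3* (35.4 to 40.1), *Chchd6* (24.0 to 26.3), *Opa1* (12.3 to 16.9) and *Apoo* (10.0 to 11.2) to *Apool* (8.83 to 9.03), and no neighbours in this order overlapped. After quinpirole *Apoo* (19.0 to 19.7) stood above *Opa1* (10.8 to 13.3), and *Opa1* and *Apool* (10.8 to 11.3) overlapped. *Apoo* was 1.112, 1.151 and 1.267 times *Apool* in saline and 1.684, 1.822 and 1.811 times after quinpirole.

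The remaining MICOS subunits and the proteins that tie the complex to the outer membrane were also read. Of these 11 genes, 3 rose and 1 fell, and 10 had a positive estimate, with a median log2 difference of 0.11, where 5.74% of all tested genes rose and 5.18% fell. The groups did not overlap for 8 of the 11 in the higher and 1 in the lower direction, against 20.0% and 16.9% of all tested genes. *Micos13* (QIL1), which brings the *Apoo* and *Apool* proteins to the rest of the complex, had an FPKM of 52.2, 51.3 and 55.7 in saline and 63.6, 68.1 and 59.99 after quinpirole (log2 difference 0.26 ± 0.06, adjusted p = 0.0335). *Micos10*, whose product MIC10 bends the membrane at the junction, had 26.5, 28.6 and 30.3 in saline and 34.6, 35.4 and 31.7 after quinpirole (0.24 ± 0.06, adjusted p = 0.0493). *Samm50*, which inserts barrel proteins into the outer membrane and binds MICOS, had 48.5, 45.4 and 49.4 in saline and 53.0, 61.2 and 56.1 after quinpirole (0.24 ± 0.06, adjusted p = 0.0459). Each of the 3 had groups that did not overlap, and the size of each step was near that of *Apool*.

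*Mtx3*, a metaxin of the same outer membrane machinery, fell. Its FPKM was 4.13, 4.20 and 3.84 in saline and 2.92, 3.18 and 3.29 after quinpirole, again without overlap (-0.29 ± 0.07, adjusted p = 0.0391). The other two metaxins did not pass the test, with 0.03 for *Mtx1* (adjusted p = 0.848) and 0.17 for *Mtx2* (adjusted p = 0.109). The estimates were 0.10 for the mitochondrial chaperone *Hspa9* (adjusted p = 0.105), 0.08 for *Dnajc11* (adjusted p = 0.222), 0.11 for *Tmem11* (adjusted p = 0.136), 0.10 for *Armc1* (adjusted p = 0.344) and 0.19 for *Chchd10* (adjusted p = 0.0791). None of the last 7 genes was called, although *Mtx2*, *Hspa9*, *Dnajc11*, *Tmem11* and *Chchd10* had quinpirole libraries that all lay above the saline libraries. The 4 calls in this list were lost together, to 0, without saline library 1 or 2 or any one quinpirole library, and 3 were made without saline library 3.

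**Figure D3:**
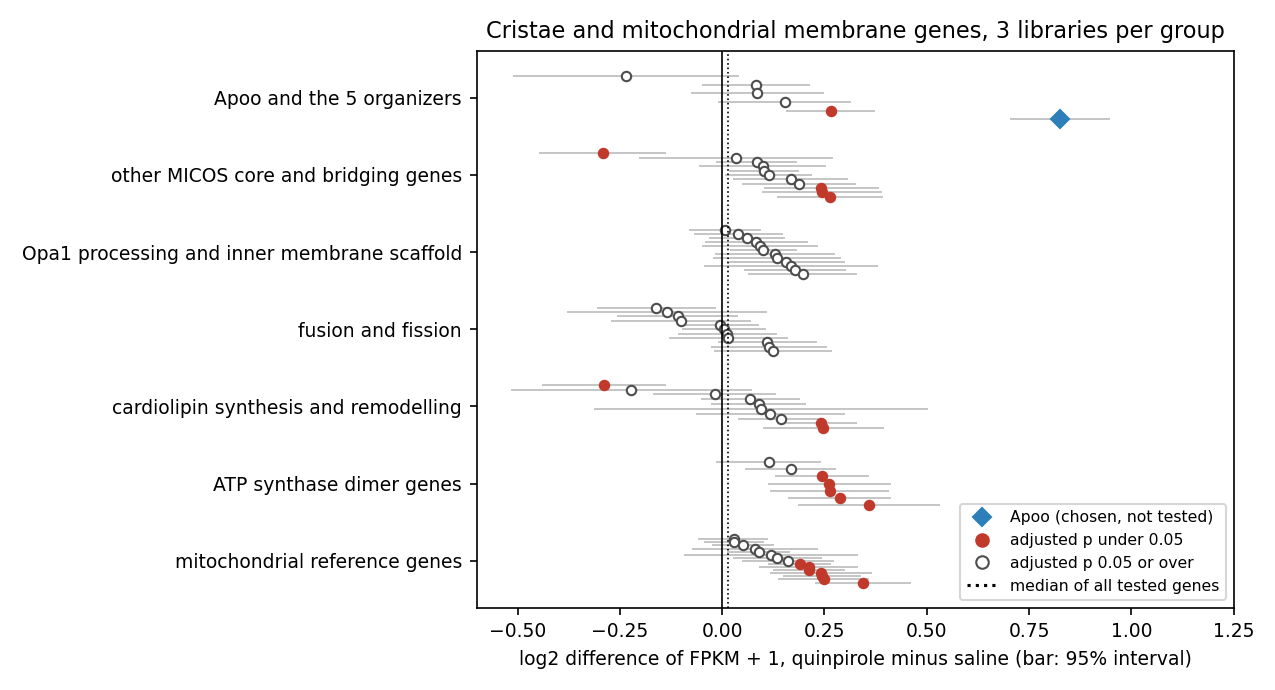
Log2 difference of FPKM + 1, quinpirole minus saline, with 95% intervals, for *Apoo* (blue, not tested), the 5 other organizers and each further list, with filled points for an adjusted p under 0.05 and a dotted line at the median of all tested genes (0.01). *Apoo* stands at 0.83 and no other plotted estimate exceeds the 0.36 of *2010107E04Rik*.

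The enzymes that cut or scaffold OPA1 and the machinery of fusion and fission showed no called gene. As 10.9% of all tested genes were called, a count of 0 in lists this short is near that share. All 12 genes of the first list, among them the proteases and prohibitins of the inner membrane, had positive estimates between 0.01 and 0.20 with a median of 0.11, and limma called 0 of them. At an unadjusted p under 0.05 there were 4 of the 12, against 3839 of all 12255 tested genes, and 1 was called without saline library 3. Of the 11 tested genes of fusion and fission, 6 had positive and 5 negative estimates, from -0.16 to 0.12, with a median of 0.00. limma called 0 of these as well, with 1 of the 11 at an unadjusted p under 0.05, against the same 3839 of 12255.

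Cardiolipin, the lipid typical of the inner membrane, is bound by several MICOS subunits. Of the 10 tested genes for its synthesis and remodelling, 2 rose and 1 fell, against 5.74% and 5.18% of all tested genes. *Prelid1*, a carrier of the precursor phosphatidic acid, went from 171, 174 and 174 to 198, 205 and 212 FPKM (0.24 ± 0.04, adjusted p = 0.0228). *Tamm41*, the mitochondrial CDP-diacylglycerol synthase, went from 7.99, 9.01 and 8.20 to 10.6, 9.60 and 10.2 (0.25 ± 0.06, adjusted p = 0.0496). *Cds2*, the enzyme of the same step in the endoplasmic reticulum, fell from 40.1, 39.1 and 36.5 to 32.9, 28.6 and 32.8 (-0.29 ± 0.07, adjusted p = 0.0383). These 3 genes were named partly because their groups did not overlap. Over the 10 tested genes the groups did not overlap for 3 in the higher and 1 in the lower direction. The shares over all tested genes were 20.0% and 16.9%.

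Dimers of the ATP synthase bend the membrane at the crista ridge. Of 7 genes for subunits at the dimer and for its inhibitor, 5 rose, with a median log2 difference of 0.26, against 5.74% of all tested genes. *2010107E04Rik*, which encodes a small proteolipid of the enzyme, went from 92.9, 82.2 and 90.8 FPKM to 112, 126 and 105 (0.36 ± 0.07, adjusted p = 0.0322). *Usmg5*, for another small subunit needed for stable dimers, went from 140, 139 and 142 to 168, 186 and 161 (0.29 ± 0.05, adjusted p = 0.0264). For *Atpif1*, the inhibitory factor, and *Atp5l*, subunit g, the differences were 0.24 ± 0.05 (adjusted p = 0.0316) and 0.26 ± 0.06 (adjusted p = 0.0419). These steps were of the size seen for *Apool*, and all were well below that of *Apoo*, which was selected for its rise.

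A list of general mitochondrial genes was read for comparison, and the amount of the organelle was not measured. All 15 had positive estimates, with a median of 0.16, and 7 rose. After quantile normalization 12 of the 15 were positive, with a median of 0.11. Without that normalization 6593 of all 12255 estimates were positive and 5.74% of the genes rose. The highest was *Vdac2*, a channel of the outer membrane, with 68.7, 67.5 and 69.6 FPKM in saline and 82.3, 93.6 and 86.4 after quinpirole (0.34 ± 0.05, adjusted p = 0.0225). *Slc25a4*, an ATP and ADP carrier, rose by 0.24 ± 0.04 (adjusted p = 0.0247), *Vdac1* by 0.19 ± 0.03 (adjusted p = 0.0251) and the chaperonin *Hspd1* by 0.21 ± 0.04 (adjusted p = 0.0251). The estimate for *Apool* thus lay within the range of this list, 0.03 to 0.34. That for *Apoo* lay above it, which is a description, because *Apoo* was selected for its rise. Without saline library 1 or 2, or without any one of quinpirole libraries 1 to 3, the calls fell from 7 to 0 in this list and from 3 to 0 in the cardiolipin list, while those of the ATP synthase list fell from 5 to 0 or, without quinpirole library 3, to 1. Without saline library 3 there were 7, 2 and 6 calls in these lists.

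Estimates varied with exonic length over the whole table, which bears on the short *Apoo*. This length joins the exons of all annotated transcripts of a gene and can exceed that of any single transcript. The median log2 difference was 0.12 among the 2445 shortest genes (102 to 2514 nucleotides of exons), where *Apoo* lies. It was -0.11 among the 2445 longest (7767 nucleotides and over), where *Immt* and *Opa1* lie. *Immt* lies there by its 11353 nucleotides of joined exons, while its longest transcript has 3476, so its corrected value rests on the joined length. With the trend of length removed, *Apoo* was at 0.70, *Apool* at 0.22 (adjusted p = 0.0485), *Immt* at 0.20 (adjusted p = 0.206), *Chchd3* at 0.09 (adjusted p = 0.386), *Chchd6* at 0.01 (adjusted p = 0.964) and *Opa1* at -0.17 (adjusted p = 0.367). The signs did not change. Under the same correction the calls among the 11 further MICOS and bridging genes fell from 4 to 0, in the cardiolipin list from 3 to 1, in the ATP synthase list from 5 to 1 and among the general mitochondrial genes from 7 to 4.

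**Figure D4:**
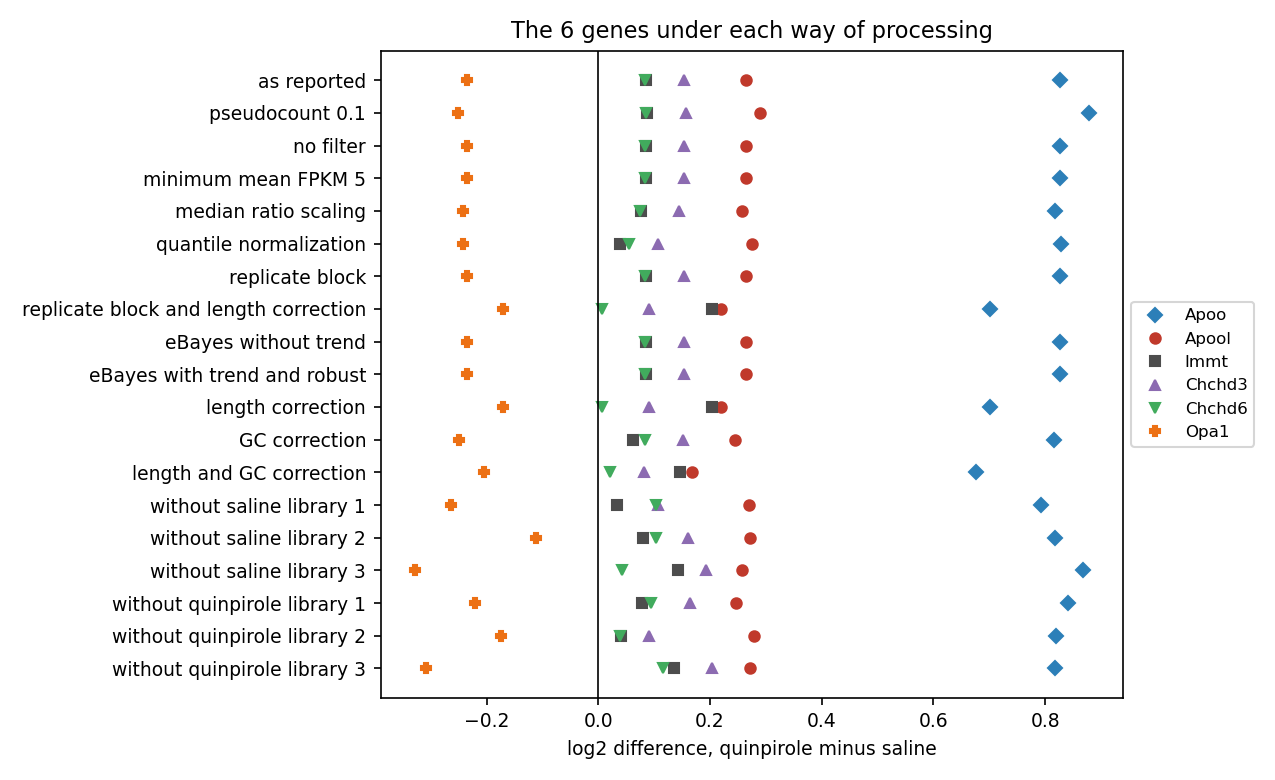
Log2 difference, quinpirole minus saline, of the 6 genes (one symbol each) under each way of processing and with each library left out in turn, with a line at 0. *Apoo* stays between 0.68 and 0.88, *Apool* between 0.17 and 0.29, and *Opa1* is negative throughout.

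The genes beside *Apoo* on the X chromosome did not show its step. The 3 nearest tested protein-coding genes before it were *Zfx* at 243.4 kb, *Eif2s3x* at 154.3 kb and *Klhl15* at 89.4 kb, with log2 differences of -0.07 (adjusted p = 0.459), 0.12 (adjusted p = 0.491) and 0.23 (adjusted p = 0.303). After it came *Maged1* at 118.4 kb, *Gspt2* at 219.0 kb and *Zxdb* at 307.5 kb, with 0.14 (adjusted p = 0.0584), -0.12 (adjusted p = 0.403) and -0.08 (adjusted p = 0.495). None of the 6 was called by limma. *Maged1* had an FPKM of 279, 278 and 294 in saline and 311, 322 and 307 after quinpirole, and *Zfx* lay lower after quinpirole without overlap. Of 403 tested genes on the X chromosome, 37 rose and 19 fell, with a median of 0.02, where 5.74% of all tested genes rose and 5.18% fell.

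**Figure D5:**
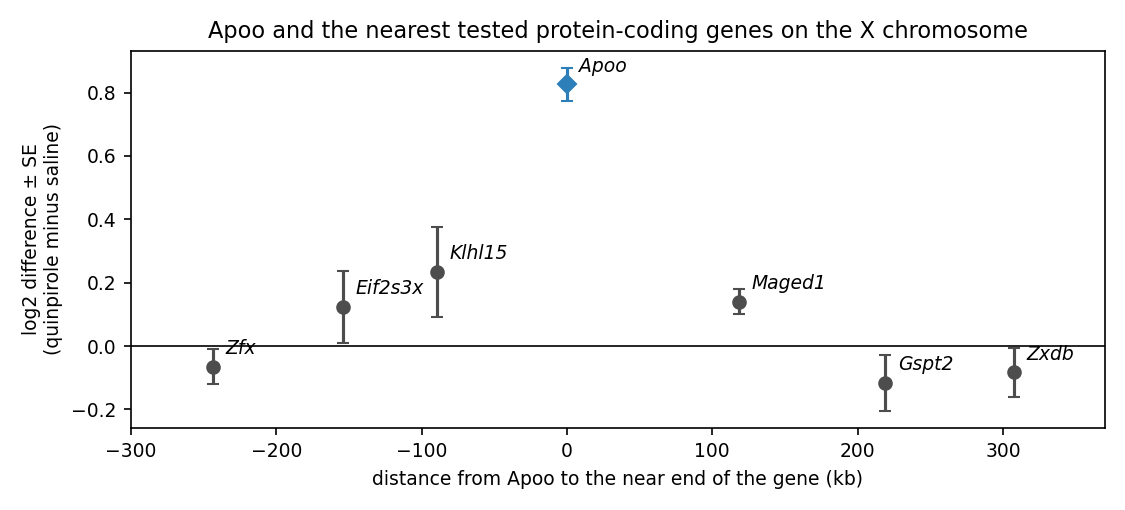
Log2 difference, quinpirole minus saline, with its standard error, for *Apoo* (blue, 0.83) and the 3 nearest tested protein-coding genes on either side, against the distance from *Apoo* in kilobases. The 6 neighbours lie between -0.12 and 0.23.

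The genes whose values followed *Apoo* most closely over the 6 libraries were *Hnrnpl*, *Ndn*, *Eef1g*, *Mettl9* and *BC031181*, with Pearson correlations of 0.9981 to 0.9965 on log2(FPKM + 1). Their differences were 0.12 to 0.21, smaller than that of *Apoo*, and *Ndn*, for example, had an FPKM of 109 to 113 in saline and 124 to 125 after quinpirole. These coefficients describe 6 libraries that fall into the groups of the design, and 347 tested genes had a coefficient above 0.95. The coefficient with *Apoo* was 0.97 for *Apool* (rank 163), 0.72 for *Chchd3*, 0.51 for *Immt*, 0.51 for *Chchd6* and -0.64 for *Opa1*.

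Markers of other cells were present, and the sums of some of these lists did not overlap between the groups. The summed FPKM of 10 neuron markers was 79.7 to 85.4 in saline and 91.3 to 98.1 after quinpirole (1 of 4 tested rose, and *Snap25* was at 0 in at least 1 library). *Stmn2*, with a mean of 54.5 and 63.8, and *Tubb3*, with 18.1 and 20.98, made up most of that sum, whereas *Snap25*, *Syt1*, *Rbfox3*, *Gad1*, *Slc17a7* and *Nefl* had means under 1 in both groups and *Camk2a* had a log2 difference of -0.19 (adjusted p = 0.105). The sum over 10 oligodendrocyte lineage markers was 424 to 440 and 448 to 466 (1 of 5 tested rose, nearly all of the sum came from *Olig1* and *Cnp*, and *Mog* and *Mobp* were at 0 in at least 1 library), and over 10 microglia markers 735 to 778 and 776 to 848 (1 of 10 rose). The 10 endothelial and mural markers summed to 34.0 to 36.3 and 28.6 to 29.1 (1 of 3 tested fell). *Pdgfrb*, with a mean of 26.2 and 21.2, made up most of that sum, whereas *Pecam1*, *Cdh5*, *Tek*, *Esam*, *Rgs5*, *Kcnj8* and *Vtn* had means under 1 in both groups. The 8 ependymal markers summed to 162 to 183 and 164 to 172, with 0 of 6 tested genes called by limma and *Tmem212* at 0 in at least 1 library. Among the astrocyte markers, 2 of 11 tested genes fell, *Atp1b2* and *Slc1a2* (-0.42 ± 0.08, adjusted p = 0.0297), and 8 had negative estimates. Of all tested genes 5.74% rose and 5.18% fell, and the counts in these short lists were not tested against those shares. The part of the marker differences in the values of *Apoo*, *Apool* and the mitochondrial lists was not tested.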

How the data were processed

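Astrocyte RNA from 6 mouse samples, 3 labelled Mock and 3 Quinpirole, was sequenced in paired-end reads. The authors trimmed the reads, mapped them with TopHat2 (GRCm38 per the submitters' processing notes), kept reads with at most 1 mismatch and deposited the FPKM of each gene, 1 table per library. The program behind FPKM, its annotation and the use of strand are not given in the sources used here. FPKM is already divided by length and depth, so no counts were tested, and depth was read from the spacing of low values of 1254 genes with 1 transcript (60.2 to 66.5% within 0.1 of a whole fragment, so whole reads were not recovered). Nothing says which samples came from separate mice, so p-values measure the spread between these samples, which may be technical.

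Identifiers were matched to symbols for 17090 of 17193 genes, and positions, exonic lengths and transcripts came from GENCODE M21, which need not be the authors' annotation. Groups were compared on log2(FPKM + 1), which understates changes of low genes, for the 12255 genes that averaged an FPKM of 1 or more, with limma 3.58.1 in R 4.3.3 (lmFit, eBayes with trend, two-sided) and Benjamini-Hochberg adjustment over all of them at 0.05. Tested on simulated data with 200 of 12255 genes changed, the fit recovered 193 and called 13 others. Recovery was not measured for separate sizes of change. It therefore does not show how often differences as small as those of the listed genes would be called, and a gene not called may still differ. Corrections for length and GC content subtracted a loess fit (span 0.3) from each library's deviations, which would also remove a true change related to length. Python 3.11.15, pandas 2.3.3 and matplotlib 3.10.9 were used.

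The 6 genes, the lists and the tests were chosen with earlier results of these data known. The genes named are the 6, all further MICOS and bridging genes, up to 4 called genes per other list with the smallest p and groups that do not overlap, 3 neighbours on either side, the 5 genes most correlated with *Apoo*, *Drd2* and copies of the 6. *Atp1b2*, *Gm17932* and the markers were named in addition, after their values were seen. *Ptpmt1* had no matched row. Protein sequences were not used here.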

Additional observations from a re-analysis of the deposited data

How the results depend on the processing

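No direction of the 6 genes changed under any setting. With a replicate block, 2 genes of the whole table, 0 of the 5 genes besides *Apoo* and 0 of each further list were called, and *Apool* had an adjusted p of 0.0836. With the block and a length correction the whole table gave 0, the 5 genes and each list gave 0, and *Apoo* was at 0.70. The labels do not say that a replicate number marks a shared animal, litter or day, and the deviations of same-numbered libraries correlated at 0.03, -0.07 and -0.10, so they were not treated as pairs. The whole table gave 633 calls without a filter, 783 after quantile normalization, 714 with eBayes without trend, 509 after length correction and 375 after length and GC correction. *Apoo* was at 0.70 after length correction, 0.68 after length and GC correction, and 0.76 with its copy added, an alternative chosen after seeing the data. Of the 5 genes, 0 were called after length and GC correction. In the same order of settings (no filter, quantile, no trend, length, length and GC), the further MICOS and bridging genes gave 0, 0, 1, 0 and 0 calls, the cardiolipin genes 1, 1, 1, 1 and 1, and the ATP synthase genes 1, 1, 1, 1 and 0, with 3 after GC correction alone. The general mitochondrial genes gave 2 after quantile normalization, 4 with eBayes without trend, 4 after length correction and 2 after length and GC correction. Leaving out 1 library gave 3 to 1182 calls in the whole table, 0 to 1 among the 5 genes, 0 to 3 among the further MICOS and bridging genes, 0 to 1 in the list on OPA1 processing, 0 to 2 in the cardiolipin list, 0 to 6 in the ATP synthase list and 0 to 7 among the general mitochondrial genes. *Apoo* ranged from 0.79 to 0.87 there. The causes of these changes were not tested. Depth limits *Apoo-ps*, whose counting error reached 60.2% per library.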
